A study of Homo sapiens with 18 samples.

Results

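The 30 genes described here are established transcriptional targets of the tumour suppressor p53, and were followed in human embryonic stem cells (hESCs) with or without a USB1 mutation as these differentiated into blood. The 30 genes were taken by symbol from a list, and each symbol matched 1 of the 35168 gene identifiers of the tables. RNA sequencing was done on 2 genotypes of the hESC line H1, USB1 mutant cells, in which CRISPR/Cas9 had introduced a frameshift deletion in USB1, and unedited wild-type (WT) cells. USB1 encodes an RNA exonuclease that trims RNA 3′ ends and is mutated in poikiloderma with neutropenia, a bone marrow failure syndrome. The groups were mutant and WT hESCs at day 0 (D0, undifferentiated), mutant and WT cells at day 16 (D16, described by the study as CD34+/CD45+ progenitors) and mutant and WT cells at day 30 (D30, described as mature blood cells), with 3 libraries in each of the 6 groups and 18 in all. Mutant cells were grown from single edited clones, and how many clones gave the 3 libraries is not given in the sources used here. A property of 1 clone and an effect of the mutation therefore cannot be told apart.

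The protein p53 is a transcription factor that is kept scarce in unstressed cells, because its own target MDM2 marks it for degradation. DNA damage, ribosome defects and other stresses release it, and it then raises genes that halt the cell cycle, promote apoptosis, repair DNA and adjust metabolism. Raised p53 activity in blood progenitors is a known feature of several inherited bone marrow failure syndromes. The 30 targets were grouped by role as 5 arrest genes, 2 feedback genes, 11 death genes, 4 repair genes, 6 metabolic genes and 2 others. The 11 death genes were BAX, BBC3, FAS, TNFRSF10B, EDA2R, AEN, PHLDA3, TP53INP1, ZMAT3, TRIAP1 and RPS27L. TRIAP1 dampens apoptosis, so the group is not made of death-promoting genes alone.

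The DNA element that p53 binds consists of 2 abutting decamers, each made of 3 purines, a 4-base core that starts with C and ends with G, and 3 pyrimidines. Both strands of the hg38 genome were searched for this element, with no spacer between the decamers, within 2500 bases of the GENCODE start of each gene. Up to 2 mismatches were allowed, none of them at the C and G of a core. Of the 30 genes 14 (46.7%) held such a match, against 739 of 19771 protein-coding genes (3.74%). With no mismatch the counts were 2 of 30 (6.67%) and 11 of 19771 (0.0556%). A match is a description of the sequence, and the genes were collected as p53 targets in the first place. The elements of 7 genes are printed. PLK2 was chosen because a perfect match stands beside a gene that the main test called on no day. The others were chosen because the results turn on them. BBC3, FDXR, SESN2 and PPM1D, on which the results turn as well, held no match. BAX and DDB2, called in every setting at D30, held a match that is not printed. Capitals mark the core of each decamer.
CDKN1A (chr6:36676449-36676468, + strand): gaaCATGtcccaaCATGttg
MDM2 (chr12:68808923-68808942, + strand): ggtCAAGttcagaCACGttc
GDF15 (chr19:18373947-18373966, + strand): agaCCTGcccggaCATGtcc
AEN (chr15:88621306-88621325, + strand): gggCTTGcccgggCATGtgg
EDA2R (chrX:66638713-66638732, - strand): gaaCATGcctggaCGTGtcc
ZMAT3 (chr3:179070188-179070207, - strand): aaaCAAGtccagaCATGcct
PLK2 (chr5:58462274-58462293, - strand): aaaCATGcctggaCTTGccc
Each is written 5′ to 3′ on the strand named. The elements lie at −11 (CDKN1A), 746 (MDM2), −784 (GDF15), −31 (AEN), 566 (EDA2R), 2008 (ZMAT3) and −2154 (PLK2) bases from the GENCODE gene start, negative values being upstream. The CDKN1A sequence is the known upstream element of that gene and the MDM2 sequence lies in its first intron, before its inducible promoter.

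Levels within a day are given as CPM, counts divided by the TMM-scaled library size and put on one common scale. Values in parentheses are the log2 fold change (mutant over WT, ± standard error) and the p-value from the quasi-likelihood test in edgeR after Benjamini-Hochberg adjustment across every gene tested that day. A gene was called at an adjusted p under 0.1. Total counts ran from 4125125 (mutant D30 replicate 3) to 19368927 (WT D30 replicate 2) per library. USB1 mRNA itself was not called on any day (adjusted p = 0.623 at D0, 0.668 at D16 and 0.432 at D30), and since a frameshift need not alter mRNA amounts these levels do not check the labels. Genes of the long arm of chromosome 1 (1q) were called lower in mutant libraries more often than genes as a whole. Of 662 tested at D0, 52 were lower and 4 higher, against 1.87% and 1.07% of all genes. Of 686 at D16, 352 were lower and 26 higher, against 15.3% and 13.1%. Of 678 at D30, 192 were lower and 48 higher, against 9.75% and 10.8%. The targets BTG2 and PHLDA3 lie on 1q.

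At D0, 5 of the 30 targets were higher in mutant hESCs and 0 were lower, while in the whole transcriptome 1.07% of 14719 genes tested were called higher and 1.87% lower. By DESeq2, 7 were higher (background 1.71%) and 0 lower (2.37%). At an unadjusted p under 0.05, edgeR gave 13 higher (background 7.32%) and 0 lower (7.60%). The median log2 fold change over the targets was 0.28, against 0.00072 over all genes tested. In 14 of the 30 all mutant values lay above all WT values (background 10.9%), and in 0 of 30 below (background 10.5%).

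The gene with the largest fold at D0 was GDF15, which encodes a secreted stress cytokine of the TGF-β superfamily. GDF15 had 26.6, 26.8 and 33.0 CPM in mutant libraries, against 12.4, 14.9 and 16.9 CPM in WT libraries (log2 fold change 0.98 ± 0.15, adjusted p = 0.0147). This is a 1.97-fold difference with no overlap between the genotypes, and the call held in all 16 alternative settings. CDKN1A encodes p21, the inhibitor of cyclin-dependent kinases through which p53 arrests the cycle. CDKN1A had 49.9, 42.4 and 47.8 CPM in mutant libraries, against 30.7, 23.8 and 25.5 CPM in WT libraries (log2 fold change 0.81 ± 0.12, adjusted p = 0.0147), again without overlap. With the deposited transcript lengths as offsets in edgeR, the log2 fold change of CDKN1A was 0.72 and its call was lost (adjusted p = 0.140), while DESeq2 with the same lengths kept it (adjusted p = 0.0169). Its effective length averaged 1594 ± 70.4 bases in mutant libraries and 1532 ± 134 bases in WT libraries.

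The metabolic gene FDXR and the death genes BBC3 and BAX were the other calls at D0. FDXR, a mitochondrial ferredoxin reductase, had 25.4, 27.3 and 29.6 CPM in mutant libraries, against 17.1, 14.4 and 17.5 CPM in WT libraries (log2 fold change 0.75 ± 0.12, adjusted p = 0.0194). Its 3 mutant values were all above the highest WT value, and the call was lost without mutant replicate 3 or WT replicate 2 (adjusted p = 0.129 and 0.119). BBC3 encodes PUMA, which releases the apoptotic effectors from their inhibitors. BBC3 had 32.5, 34.8 and 34.0 CPM in mutant libraries, against 17.8, 22.2 and 24.6 CPM in WT libraries (log2 fold change 0.65 ± 0.13, adjusted p = 0.0459). The BBC3 call was lost without mutant replicate 2, mutant replicate 3 or WT replicate 2 (adjusted p = 0.137, 0.206 and 0.185), with lengths in edgeR (0.137) and in the fit over 18 libraries (0.357). BAX, an effector that permeabilises mitochondria, had 74.1, 65.1 and 67.3 CPM in mutant libraries, against 48.5, 49.5 and 56.9 CPM in WT libraries (log2 fold change 0.42 ± 0.10, adjusted p = 0.0925). That call was near the threshold and was lost in 9 of 16 settings, among them each single library left out except WT replicate 3, with adjusted p up to 0.370.

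Same-numbered mutant and WT libraries deviated together at D0, and with the replicate number as a block 10 targets were higher and 0 lower, against backgrounds of 6.04% and 5.63%. The 5 gained were RPS27L (adjusted p = 0.0232 with the block), DDB2 (0.0257), AEN (0.0268), MDM2 (0.0957) and PHLDA3 (0.0959, on 1q). AEN, a nuclease that acts in apoptosis, had 310.2, 309.5 and 316 CPM in mutant libraries, against 239, 242 and 269.8 CPM in WT libraries, so that every mutant value exceeded every WT value. MDM2 had 297, 259 and 244 CPM in mutant libraries, against 246, 231 and 219.9 CPM in WT libraries, and here the genotypes overlapped. Per length the MDM2 level was 134 ± 6.0 TPM in mutant cells and 137 ± 1.5 TPM in WT cells (SD, n = 3 each), on which scale the mutant mean was not the higher one.

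At D16 the targets were split in direction. Of 29 tested, 6 (20.7%) were higher in mutant progenitors (background 13.1% of 14528 genes) and 3 (10.3%) were lower (background 15.3%). By DESeq2 these were 5 and 2 (backgrounds 12.8% and 14.7%), and at an unadjusted p under 0.05 in edgeR 7 and 4 (backgrounds 16.5% and 18.04%). The remaining target, SPATA18, was too low for the count filter, at 1.16, 0.747 and 0.398 CPM in mutant libraries, against 0.479, 0.245 and 0.497 CPM in WT libraries. The median log2 fold change was 0.03, against 0.01 over all genes tested. All mutant values lay above all WT values for 9 targets (background 18.6%) and below for 4 (background 19.5%).

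The rise with the smallest adjusted p at D16 was in TIGAR, a phosphatase that lowers glycolytic flux and raises antioxidant capacity. TIGAR had 7.36, 7.32 and 8.09 CPM in mutant libraries, against 2.15, 2.26 and 3.62 CPM in WT libraries (log2 fold change 1.49 ± 0.27, adjusted p = 0.00354), a 2.80-fold difference without overlap. GDF15 was nearly silent in progenitors, with 1.86, 1.94 and 2.12 CPM in mutant libraries, against 0.598, 0.489 and 0.639 CPM in WT libraries (log2 fold change 1.78 ± 0.36, adjusted p = 0.00718), which rests on 24, 26 and 32 counts in mutant libraries and on 5, 8 and 9 counts in WT libraries. FDXR had 28.0, 33.2 and 31.1 CPM in mutant libraries, against 20.5, 19.1 and 22.9 CPM in WT libraries (log2 fold change 0.56 ± 0.14, adjusted p = 0.0191). SESN1, a sestrin that restrains mTORC1, had 23.7, 19.9 and 22.6 CPM in mutant libraries, against 16.2, 14.7 and 13.2 CPM in WT libraries (log2 fold change 0.59 ± 0.15, adjusted p = 0.0214). Its call was lost with lengths (adjusted p = 0.390 in edgeR and 0.432 in DESeq2), the effective length being 1845 ± 225 bases in mutant libraries and 1576 ± 326 bases in WT libraries.

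TRIAP1 and BBC3 completed the rises at D16, both near the threshold. TRIAP1, a small mitochondrial protein that dampens apoptosis, had 22.9, 19.6 and 21.4 CPM in mutant libraries, against 13.6, 10.03 and 19.2 CPM in WT libraries (log2 fold change 0.57 ± 0.22, adjusted p = 0.0886). BBC3 had 10.5, 13.2 and 13.5 CPM in mutant libraries, against 9.81, 7.71 and 8.88 CPM in WT libraries (log2 fold change 0.50 ± 0.19, adjusted p = 0.0875). The mutant values of both genes lay above the WT values, yet the TRIAP1 call was lost in 8 of 16 settings (adjusted p up to 0.285) and the BBC3 call in 10 of 16 (up to 0.277). For TRIAP1 these included leaving out any single library except WT replicate 3, and for BBC3 leaving out mutant replicate 2, mutant replicate 3, WT replicate 1 or WT replicate 2.

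The 3 targets that fell at D16 were TP53INP1, BTG2 and POLH. TP53INP1, which promotes p53 phosphorylation and autophagy-linked death, had 86.2, 88.0 and 86.2 CPM in mutant libraries, against 185, 176 and 121 CPM in WT libraries (log2 fold change −0.89 ± 0.16, adjusted p = 0.00379). BTG2, an antiproliferative cofactor of mRNA deadenylation, had 263, 225 and 568 CPM in mutant libraries, against 735, 685 and 1012 CPM in WT libraries (log2 fold change −1.20 ± 0.31, adjusted p = 0.0201). It lies on 1q, and without mutant replicate 1 its call was lost (adjusted p = 0.107). POLH, the polymerase that copies past ultraviolet lesions, had 30.8, 29.7 and 28.0 CPM in mutant libraries, against 38.2, 37.0 and 37.1 CPM in WT libraries (log2 fold change −0.34 ± 0.13, adjusted p = 0.0785). The POLH difference was small but without overlap, and its call was lost in 10 of 16 settings, any single library left out except WT replicate 3 included (adjusted p up to 0.217).

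CDKN1A and MDM2 were not called at D16. CDKN1A had 138, 134 and 125 CPM in mutant libraries, against 152, 128 and 119 CPM in WT libraries (log2 fold change −0.01 ± 0.13, adjusted p = 0.983), and the mutant values lay within the WT range. MDM2 had 158, 141 and 134 CPM in mutant libraries, against 132, 128 and 131 CPM in WT libraries (log2 fold change 0.14 ± 0.12, adjusted p = 0.421). Same-numbered libraries deviated together on this day too. With the replicate block 9 targets were higher (background 18.3%) and 4 lower (background 18.9%), the additions being AEN (adjusted p = 0.0182), EDA2R (0.0445) and CCNG1 (0.0941) among the higher and PHLDA3 (0.0958, on 1q) among the lower.

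At D30, 19 of the 30 targets were higher in mutant cells and 0 were lower, against backgrounds of 10.8% higher and 9.75% lower among 14263 genes tested. DESeq2 also gave 19 and 0 (backgrounds 12.3% and 10.4%), and at an unadjusted p under 0.05 edgeR gave 20 and 0 (backgrounds 14.8% and 14.1%). The median log2 fold change was 0.65, against −0.01 over all genes tested. All mutant values lay above all WT values for 21 targets (background 17.5%) and below for 1, TP53I3 (background 18.2%). By role, 2 of 5 arrest genes were higher, 2 of 2 feedback genes, 8 of 11 death genes, 3 of 4 repair genes, 3 of 6 metabolic genes and 1 of 2 others.

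**Figure D1:**
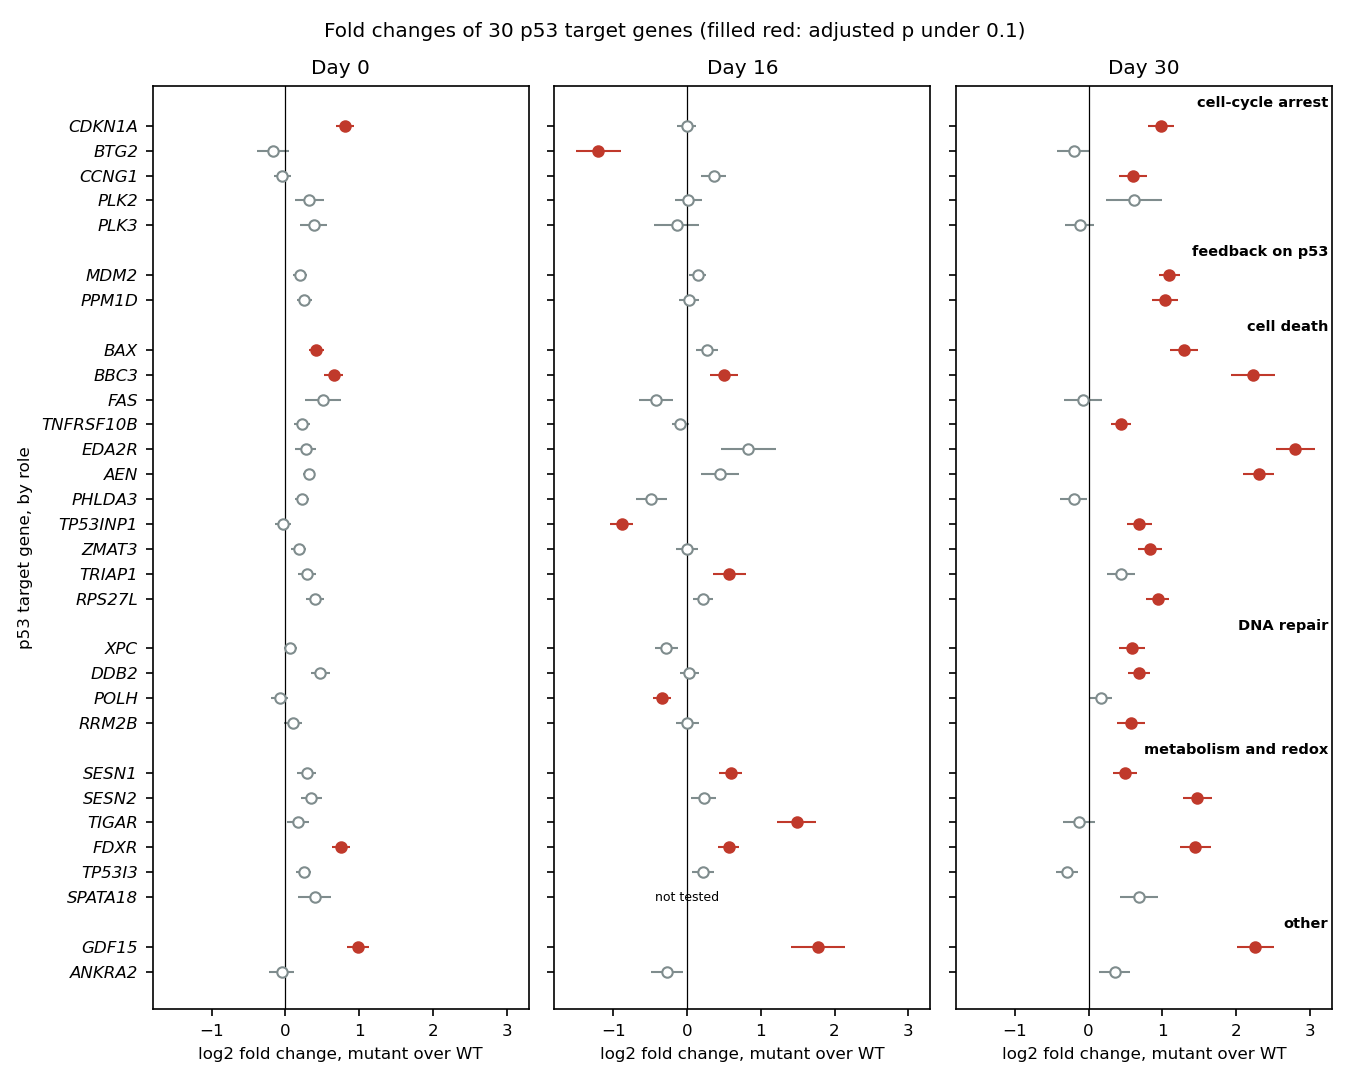
Fold changes of the 30 targets at each day, grouped by role. The x axis gives log2 fold change (mutant over WT), bars are standard errors, and filled red points have an adjusted p under 0.1. Red points number 5 at D0, 9 at D16 (3 of them left of 0) and 19 at D30, all right of 0 at D0 and D30.

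The death genes EDA2R and AEN had the largest folds at D30. EDA2R encodes a death-domain receptor of the TNF receptor family. EDA2R had 18.5, 18.1 and 22.3 CPM in mutant libraries, against 1.93, 2.89 and 3.46 CPM in WT libraries (log2 fold change 2.81 ± 0.26, adjusted p = 0.00153), a 6.99-fold difference. AEN had 303, 208 and 273 CPM in mutant libraries, against 42.9, 50.1 and 65.5 CPM in WT libraries (log2 fold change 2.31 ± 0.21, adjusted p = 0.00144). BBC3 had 217, 112 and 182 CPM in mutant libraries, against 24.8, 35.8 and 48.2 CPM in WT libraries (log2 fold change 2.23 ± 0.30, adjusted p = 0.00423). In all 3 genes the lowest mutant library was over 2-fold above the highest WT library. BAX had 153, 103 and 154 CPM in mutant libraries, against 48.4, 59.1 and 59.9 CPM in WT libraries (log2 fold change 1.29 ± 0.19, adjusted p = 0.00554).

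ZMAT3, a zinc-finger protein that binds RNA and controls splicing, had 109.9, 151 and 140.0 CPM in mutant libraries, against 73.7, 69.5 and 82.5 CPM in WT libraries (log2 fold change 0.83 ± 0.16, adjusted p = 0.0136). RPS27L, a ribosomal protein paralog, had 74.8, 74.6 and 84.7 CPM in mutant libraries, against 43.9, 33.5 and 45.0 CPM in WT libraries (log2 fold change 0.94 ± 0.16, adjusted p = 0.00878). Neither gene had overlapping genotypes. RPS27L shares sequence with RPS27, so its counts are uncertain, and its call was lost with lengths (adjusted p = 0.176 in edgeR and 0.108 in DESeq2) where its effective length was 799 ± 245 bases in mutant libraries and 686 ± 83.2 bases in WT libraries. Lower down, TP53INP1 (log2 fold change 0.69 ± 0.17, adjusted p = 0.0313) was now higher in the mutant, with a call lost without WT replicate 2 (0.117). TNFRSF10B, the TRAIL receptor DR5, was higher by less (log2 fold change 0.44 ± 0.14, adjusted p = 0.0728), and its call was lost in 8 of 16 settings, any single library left out except mutant replicate 3 included. FAS, PHLDA3 and TRIAP1 were not called, with log2 fold changes of −0.07, −0.20 and 0.44.

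Both feedback genes rose at D30. MDM2 had 354, 339 and 310.2 CPM in mutant libraries, against 150.1, 147 and 172 CPM in WT libraries (log2 fold change 1.10 ± 0.14, adjusted p = 0.00370). PPM1D encodes the phosphatase WIP1, which removes activating phosphates from p53 and its kinases. PPM1D had 74.5, 53.4 and 81.3 CPM in mutant libraries, against 35.7, 33.2 and 32.6 CPM in WT libraries (log2 fold change 1.04 ± 0.18, adjusted p = 0.00920). The mutant libraries of both genes lay at about 2-fold the WT level (2.14-fold and 2.05-fold) without overlap. Per length MDM2 was at 151 ± 31.7 TPM in mutant cells and 96.0 ± 15.9 TPM in WT cells (SD, n = 3 each).

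Among arrest genes, CDKN1A and CCNG1 rose at D30 while BTG2, PLK2 and PLK3 were not called. CDKN1A had 495, 501 and 544 CPM in mutant libraries, against 211, 253 and 314 CPM in WT libraries (log2 fold change 0.99 ± 0.18, adjusted p = 0.0104), without overlap. CCNG1, cyclin G1, was 1.52-fold higher (log2 fold change 0.60 ± 0.18, adjusted p = 0.0666), with a call lost without mutant replicate 2, mutant replicate 3, WT replicate 1 or WT replicate 2 (adjusted p up to 0.200). PLK2, whose upstream sequence holds the perfect element match shown above, had a log2 fold change of 0.62 (adjusted p = 0.321), BTG2 of −0.20 and PLK3 of −0.12. PLK2 was called in 2 of 16 settings, the replicate block (adjusted p = 0.0528) and WT replicate 3 left out (0.0937).

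Of the repair genes, DDB2, XPC and RRM2B rose at D30. DDB2, which recognises ultraviolet lesions, was 1.60-fold higher (log2 fold change 0.68 ± 0.15, adjusted p = 0.0220). XPC, the lesion sensor of global nucleotide excision repair (log2 fold change 0.59 ± 0.17, adjusted p = 0.0604), and RRM2B, the p53-inducible subunit of ribonucleotide reductase (log2 fold change 0.57 ± 0.19, adjusted p = 0.0781), also passed the test. The XPC call was lost without mutant replicate 1 or any WT library (adjusted p up to 0.182) and that of RRM2B without mutant replicate 2, mutant replicate 3 or any WT library (up to 0.226). POLH was not called (log2 fold change 0.16 ± 0.15, adjusted p = 0.518). The median log2 fold change was 0.58 over the 4 repair genes and 0.83 over the 11 death genes, a difference that was not tested.

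Of the metabolic genes, SESN2, FDXR and SESN1 rose at D30. SESN2, a sestrin that signals amino acid shortage to mTORC1, had 282, 193 and 224 CPM in mutant libraries, against 67.0, 90.2 and 94.7 CPM in WT libraries (log2 fold change 1.47 ± 0.20, adjusted p = 0.00414). FDXR had 44.8, 28.8 and 33.8 CPM in mutant libraries, against 11.7, 12.4 and 15.4 CPM in WT libraries (log2 fold change 1.45 ± 0.21, adjusted p = 0.00560). These are 2.77-fold and 2.73-fold differences, both without overlap. SESN1 stood at the threshold (log2 fold change 0.49 ± 0.17, adjusted p = 0.0885), and its call was lost in 11 of 16 settings, any single library left out except mutant replicate 1 included (adjusted p up to 0.307). TIGAR, called at D16, had a log2 fold change of −0.13 at D30 (adjusted p = 0.734). TP53I3, a quinone oxidoreductase known as PIG3, had 28.8, 25.7 and 26.2 CPM in mutant libraries, against 33.5, 31.2 and 34.4 CPM in WT libraries (log2 fold change −0.29 ± 0.14, adjusted p = 0.219). TP53I3 was the only target with all mutant values below all WT values at D30, and it was not called. SPATA18, a mitochondrial quality-control protein, was called in 5 of 16 settings (adjusted p = 0.0207 to 0.0964), among them both fits with lengths, and had a log2 fold change of 0.68 (adjusted p = 0.113).

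GDF15, per length the most abundant target at D30, rose as well. GDF15 had 2098, 1224 and 1583 CPM in mutant libraries, against 271, 334 and 418 CPM in WT libraries (log2 fold change 2.26 ± 0.25, adjusted p = 0.00218), a 4.80-fold difference. Mutant replicate 2 was the lowest of the 3 mutant libraries for GDF15, BBC3, BAX, AEN, SESN2 and FDXR alike, and in each of these genes it still lay above every WT library. ANKRA2, an ankyrin repeat protein, was not called on any day (log2 fold changes of −0.05, −0.27 and 0.35 at D0, D16 and D30). Of the 19 calls at D30, 12 held in all 16 alternative settings. These were EDA2R, AEN, GDF15, BBC3, SESN2, FDXR, BAX, MDM2, PPM1D, CDKN1A, ZMAT3 and DDB2.

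**Figure D2:**
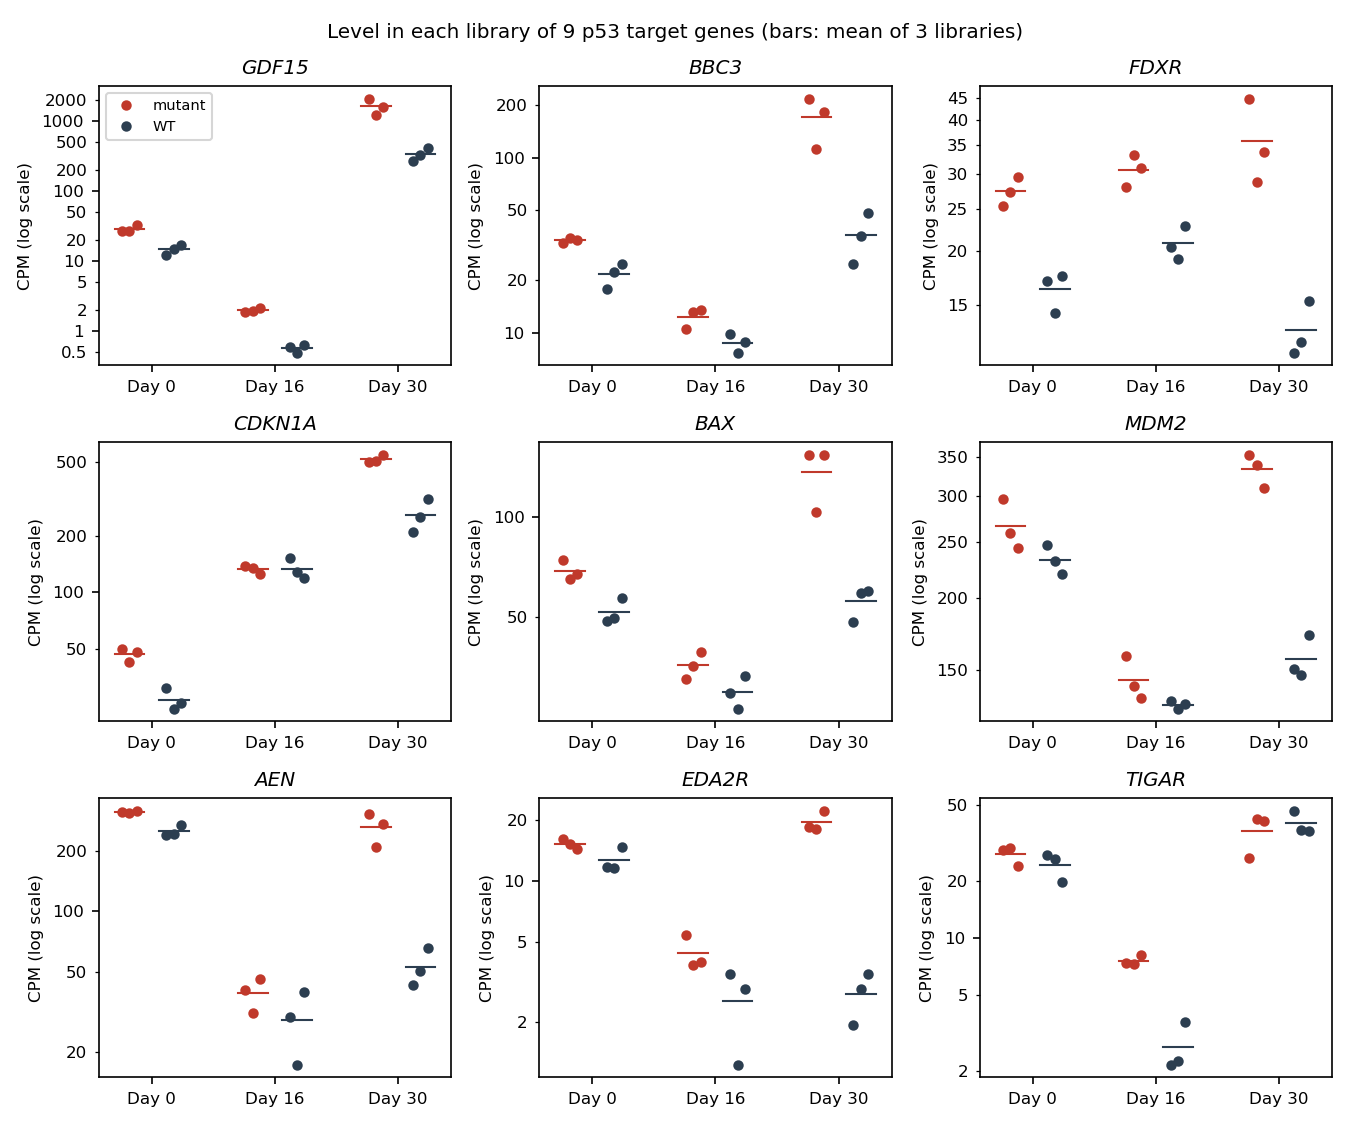
Level of 9 targets in each library, in CPM on a log scale that is scaled within each day, with mutant (red) left of WT (dark) and a bar at the mean of 3 libraries. GDF15, BBC3 and FDXR were higher in the mutant without overlap on all 3 days, MDM2, AEN and EDA2R separated most at D30, and TIGAR at D16.

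Sorted by day, 3 targets were higher on all 3 days, namely BBC3, FDXR and GDF15. CDKN1A and BAX were called at D0 and D30 and SESN1 at D16 and D30. Another 12 were called at D30 alone, which were AEN, CCNG1, DDB2, EDA2R, MDM2, PPM1D, RPS27L, RRM2B, SESN2, TNFRSF10B, XPC and ZMAT3. TIGAR and TRIAP1 were called at D16 alone, and TP53INP1 was lower at D16 and higher at D30. BTG2 and POLH were lower at D16 alone. ANKRA2, FAS, PHLDA3, PLK2, PLK3, SPATA18 and TP53I3 were called on no day.

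A call on one day and none on another does not show that the days differ, so the difference of the genotype effects was tested in a fit over all 18 libraries. From D0 to D30 the log2 fold change of mutant against WT moved up in 11 targets (background 6.42% of 16829 genes) and down in 1, TP53I3 (background 4.48%). Of the 12 targets called at D30 alone, 6 passed this test, which were AEN, EDA2R, MDM2, PPM1D, SESN2 and ZMAT3. BBC3, FDXR and GDF15, higher on every day, were also among the 11. From D16 to D30 it moved up in 16 targets (background 10.3%) and down in 2, TIGAR and TP53I3 (background 10.2%). The 16 include POLH and TP53INP1, which were lower in mutant cells at D16. From D0 to D16 it moved up in 1, TIGAR (background 3.86%), and down in 2, CDKN1A and TP53INP1 (background 3.75%). With day and replicate number as blocks, BTG2 was added from D0 to D16 (adjusted p = 0.0182), RPS27L from D0 to D30 (0.0848) and BTG2 and RRM2B from D16 to D30 (0.00575 and 0.0959).

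**Figure D3:**
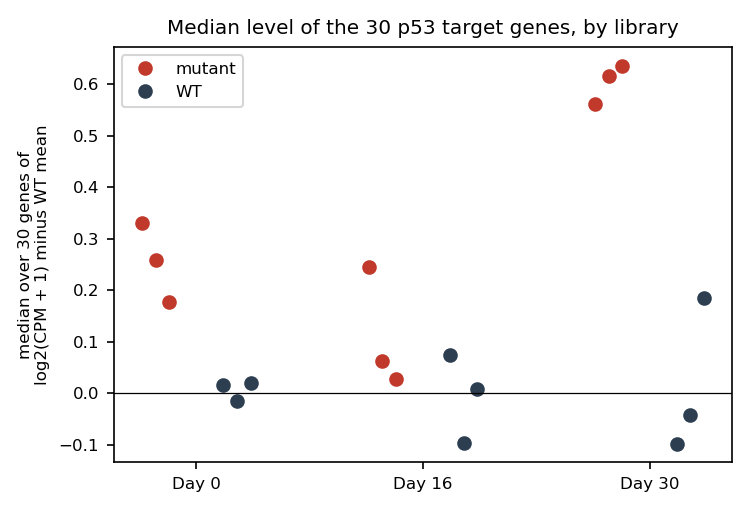
Median over the 30 targets of log2(CPM + 1) minus the WT mean of the same day, one point per library, with mutant (red) left of WT (dark). Mutant libraries ran from 0.18 to 0.33 at D0, from 0.03 to 0.24 at D16 and from 0.56 to 0.64 at D30, above all WT libraries at D0 and D30 and overlapping them at D16.

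Levels of different genes were compared per length within each day, in the deposited TPM values (transcript abundance scaled to a fixed library sum). The targets differed widely from each other. At D0 the highest in mutant cells were PLK2, a kinase of the polo family, at 209 ± 90.1 TPM in mutant cells and 146 ± 8.72 TPM in WT cells and AEN at 189 ± 13.5 TPM in mutant cells and 167 ± 14.8 TPM in WT cells, while SPATA18 stood at 2.71 ± 0.516 TPM in mutant cells and 2.59 ± 0.820 TPM in WT cells (SD, n = 3 each, as in the rest of this paragraph). PLK2 and AEN overlapped in their spread. At D16 the highest in mutant cells were CCNG1 at 313 ± 56.8 TPM in mutant cells and 245 ± 15.7 TPM in WT cells and BTG2 at 179 ± 102 TPM in mutant cells and 377 ± 72.2 TPM in WT cells. At D30 the order in mutant cells began with GDF15 at 1903 ± 426 TPM in mutant cells and 496 ± 87.4 TPM in WT cells, followed by CDKN1A at 509 ± 31.4 TPM in mutant cells and 263 ± 46.4 TPM in WT cells and BAX at 256 ± 40.9 TPM in mutant cells and 126 ± 24.8 TPM in WT cells. EDA2R, with the largest fold at D30, was among the lowest at 8.40 ± 0.956 TPM in mutant cells and 1.24 ± 0.187 TPM in WT cells.

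Most targets changed between days in both genotypes, as most genes did, in the fit over 18 libraries on counts without lengths. From D0 to D16, 7 rose and 17 fell in mutant cells (backgrounds 36.9% and 36.0% of genes), and 10 rose and 16 fell in WT cells (backgrounds 37.0% and 39.3%). From D16 to D30, 23 rose and 1 fell in mutant cells (backgrounds 34.7% and 35.1%), and 19 rose and 5 fell in WT cells (backgrounds 31.6% and 35.1%). GDF15 had the largest change from D16 to D30 in both genotypes. It changed by −3.68 and then 9.67 log2 units in mutant cells and by −4.52 and then 9.22 in WT cells. From D0 to D16 the largest change was that of BTG2, which rose by 5.26 log2 units in mutant and 6.26 in WT cells. CDKN1A rose at both steps in both genotypes, by 1.69 and 1.94 log2 units in mutant cells and by 2.46 and 0.99 in WT cells. MDM2 rose by 1.20 log2 units from D16 to D30 in mutant cells and by 0.29 in WT cells. Per length not every such rise was seen. In mutant cells RPS27L rose by 0.77 log2 units from D16 to D30, at 121 ± 12.4 and then 118 ± 43.0 TPM (SD, n = 3 each). POLH rose there by 0.53 log2 units from D0 to D16, at 7.75 ± 4.97 and then 5.98 ± 0.0956 TPM.

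The list of p53 regulators and relatives (24 genes, with levels given as mean ± SD over 3 libraries) had 0 of 23 tested called at D0 by edgeR or DESeq2, with 0 higher and 1 lower at an unadjusted p under 0.05. The unadjusted backgrounds at D0 were 7.32% higher and 7.60% lower. At D16, 0 of 22 were higher and 5 (22.7%) lower, against backgrounds of 13.1% and 15.3%. DESeq2 gave 1 and 5 (backgrounds 12.8% and 14.7%), and an unadjusted p under 0.05 gave 3 and 5 (16.5% and 18.04%). At D30, 3 (13.6%) were higher and 3 (13.6%) lower, near the backgrounds of 10.8% and 9.75%. CDKN2A, which encodes the MDM2 inhibitor ARF as well as p16, averaged 8.76 ± 1.11 CPM in mutant and 23.2 ± 3.15 CPM in WT libraries (log2 fold change −1.40 ± 0.17, adjusted p = 0.000627) at D16. MDM4, a p53 inhibitor on 1q, averaged 163 ± 4.78 CPM in mutant and 243 ± 31.5 CPM in WT libraries (log2 fold change −0.58 ± 0.13, adjusted p = 0.0120) at D16. COP1, a ubiquitin ligase of p53 that also lies on 1q, averaged 93.9 ± 6.26 CPM in mutant and 157 ± 11.1 CPM in WT libraries (log2 fold change −0.75 ± 0.12, adjusted p = 0.00233) at D16 and 76.9 ± 10.9 CPM in mutant and 134 ± 17.6 CPM in WT libraries (log2 fold change −0.80 ± 0.16, adjusted p = 0.0169) at D30. DAXX, a histone chaperone that binds MDM2, averaged 37.7 ± 1.80 CPM in mutant and 13.7 ± 4.24 CPM in WT libraries (log2 fold change 1.44 ± 0.23, adjusted p = 0.00661) at D30, and the deacetylase SIRT1 averaged 42.0 ± 4.89 CPM in mutant and 25.1 ± 2.96 CPM in WT libraries (log2 fold change 0.74 ± 0.17, adjusted p = 0.0231). Activity of p53 is set mainly at the protein level, which was not measured here. Over the list the median log2 fold change was −0.05, −0.07 and −0.01 at D0, D16 and D30.

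A second list of 39 reported p53 targets was followed beside the 30. In it 2 of 39 were higher and 0 lower at D0 (2 and 0 by DESeq2, and 10 and 2 at an unadjusted p under 0.05), 4 of 38 higher and 10 lower at D16, and 6 of 38 higher and 3 lower at D30. The D0 calls, LIF and TRIM22, were both lost with any single library left out. At D0 5.13% were higher, against 1.07% of all genes, and the unadjusted backgrounds were 7.32% higher and 7.60% lower. At D16 10.5% were higher and 26.3% lower, against 13.1% and 15.3% of all genes, and at D30 15.8% and 7.89%, against 10.8% and 9.75%. DESeq2 gave 3 higher and 9 lower at D16 (backgrounds 12.8% and 14.7%) and 7 and 3 at D30 (12.3% and 10.4%). An unadjusted p under 0.05 in edgeR gave 5 and 12 at D16 (16.5% and 18.04%) and 7 and 3 at D30 (14.8% and 14.1%). Its median log2 fold changes were 0.04, −0.20 and 0.03. At D30 ACER2, a ceramidase, averaged 9.09 ± 1.63 CPM in mutant and 2.54 ± 0.203 CPM in WT libraries (log2 fold change 1.82 ± 0.27, adjusted p = 0.00584), PERP, a desmosomal protein, averaged 9.11 ± 6.53 CPM in mutant and 0.721 ± 0.438 CPM in WT libraries (log2 fold change 3.71 ± 0.71, adjusted p = 0.0128), and GADD45A, a stress-response protein, averaged 83.4 ± 25.2 CPM in mutant and 33.2 ± 9.71 CPM in WT libraries (log2 fold change 1.33 ± 0.28, adjusted p = 0.0187). GADD45A had gone the other way at D16, where it averaged 18.2 ± 1.66 CPM in mutant and 37.6 ± 9.30 CPM in WT libraries (log2 fold change −1.04 ± 0.18, adjusted p = 0.00331). ALOX5, a lipoxygenase of myeloid cells, was lower at D30, at 96.4 ± 11.5 CPM in mutant and 274 ± 103 CPM in WT libraries (log2 fold change −1.51 ± 0.27, adjusted p = 0.0107).

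Genes that p53 lowers indirectly, through p21 and the DREAM repressor complex, are mostly drivers of S phase and mitosis. Of 26 such genes 0 were called in either direction at D0 by edgeR or DESeq2. At an unadjusted p under 0.05, 2 were higher and 3 lower at D0 (backgrounds 7.32% and 7.60%). At D16, 8 (30.8%) were higher and 0 lower, against backgrounds of 13.1% and 15.3%. DESeq2 gave 10 and 0 (backgrounds 12.8% and 14.7%), and an unadjusted p under 0.05 gave 11 and 0 (16.5% and 18.04%). At D30, 0 were higher and 9 (34.6%) lower, against backgrounds of 10.8% and 9.75%. DESeq2 gave 0 and 9 (12.3% and 10.4%), and an unadjusted p under 0.05 gave 0 and 18 (14.8% and 14.1%). The median log2 fold change was 0.31 at D16 and −0.62 at D30. TOP2A, the topoisomerase of dividing cells, averaged 66.4 ± 14.6 CPM in mutant and 141 ± 26.7 CPM in WT libraries (log2 fold change −1.07 ± 0.21, adjusted p = 0.0138) at D30, and KIF20A, a mitotic kinesin, averaged 8.05 ± 1.34 CPM in mutant and 16.8 ± 3.67 CPM in WT libraries (log2 fold change −1.06 ± 0.24, adjusted p = 0.0255). The TOP2A call was lost with lengths in edgeR and DESeq2 (adjusted p = 0.223 and 0.166). The calls of CENPF (0.164 and 0.103) and BUB1B (0.391 and 0.416), also lower at D30, were lost with lengths too. That of BUB1B was further lost without WT replicate 1 or WT replicate 2. CCNA2, cyclin A2, was higher at D16, at 156 ± 11.3 CPM in mutant and 110.0 ± 18.1 CPM in WT libraries (log2 fold change 0.50 ± 0.14, adjusted p = 0.0311), with a call lost without mutant replicate 1, WT replicate 1 or WT replicate 2 (adjusted p = 0.106, 0.128 and 0.119). The D16 calls of BIRC5, BUB1 and MCM2 were also lost with single libraries left out, WT replicate 1 and WT replicate 2 among them (adjusted p up to 0.176).

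GDF15, SESN2 and TNFRSF10B are also known targets of ATF4 or CHOP, the transcription factors of the integrated stress response, so 16 other genes of that response were followed beside them. At D0, 0 of 16 were called by edgeR. DESeq2 gave 3 higher and 0 lower (backgrounds 1.71% and 2.37%), and an unadjusted p under 0.05 gave 5 and 0 (7.32% and 7.60%). At D16, 0 were higher and 7 (43.8%) lower, against backgrounds of 13.1% and 15.3% (0 and 6 by DESeq2, and 0 and 8 unadjusted). At D30, 10 (62.5%) were higher and 0 lower, against backgrounds of 10.8% and 9.75% (10 and 0 by DESeq2, and 11 and 0 unadjusted). The list's median log2 fold change was −0.32 at D16 and 1.03 at D30. At D30 ATF4 averaged 569 ± 111 CPM in mutant and 248 ± 23.5 CPM in WT libraries (log2 fold change 1.19 ± 0.18, adjusted p = 0.00639), DDIT3, which encodes CHOP, averaged 97.4 ± 10.1 CPM in mutant and 45.4 ± 9.18 CPM in WT libraries (log2 fold change 1.10 ± 0.18, adjusted p = 0.00702), and the pseudokinase TRIB3 averaged 697 ± 119 CPM in mutant and 184 ± 78.9 CPM in WT libraries (log2 fold change 1.92 ± 0.30, adjusted p = 0.00674). At D16 SLC7A11, the cystine transporter, averaged 60.1 ± 12.8 CPM in mutant and 125 ± 16.7 CPM in WT libraries (log2 fold change −1.06 ± 0.17, adjusted p = 0.00192). GDF15, SESN2 and TNFRSF10B were all called higher at D30. Leaving them out takes the 19 higher p53 targets to 16 by subtraction alone, so that count tests nothing. The median log2 fold change of the remaining targets was 0.62. The 3 genes left out were picked after seeing the data, and other targets that both responses share may remain among the 16. What part this response has in the rise of the p53 targets was not tested.

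**Figure D4:**
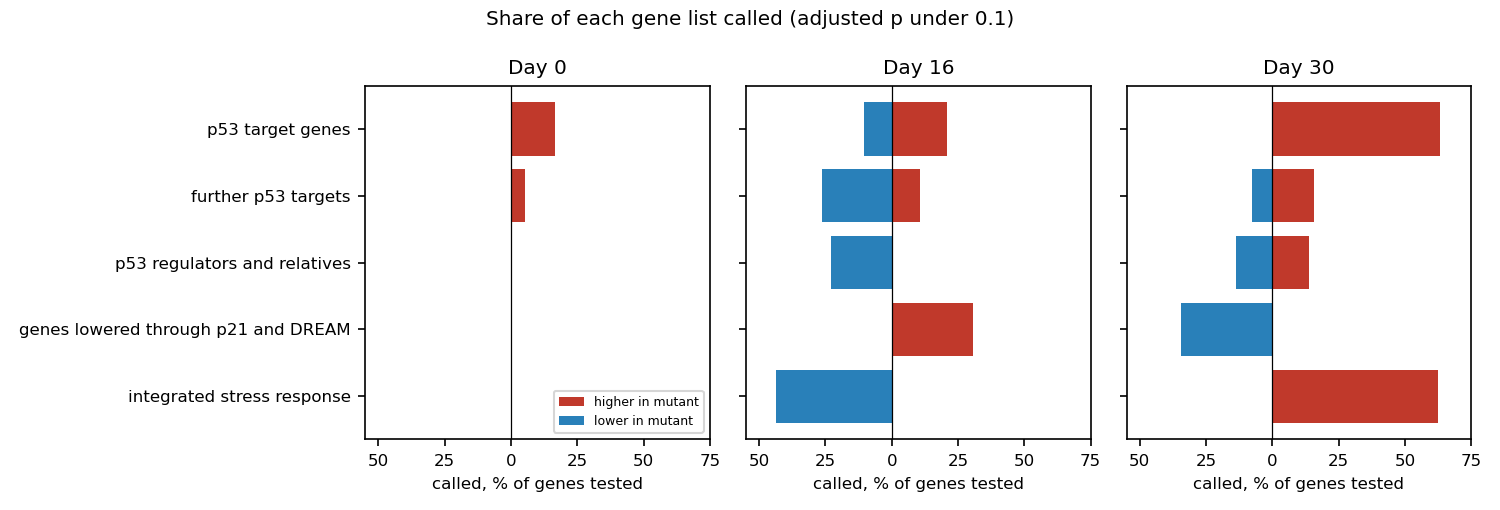
Share of each gene list called at each day, as a percentage of its genes tested, with calls higher in the mutant drawn right of 0 (red) and lower ones left of 0 (blue). The 30 p53 targets reach 63.3% higher at D30. Of all genes tested, 1.07% were called higher and 1.87% lower at D0, 13.1% and 15.3% at D16, and 10.8% and 9.75% at D30. The genes lowered through p21 and DREAM lie right of 0 at D16 and left of 0 at D30, and those of the integrated stress response left of 0 at D16 and right of 0 at D30.

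Marker genes of blood lineages moved with the genotype at D30, where 19 targets were higher. Of all genes tested, 10.8% were called higher and 9.75% lower at D30, and 13.1% and 15.3% at D16. The 14 erythroid markers summed to 54816 to 92463 CPM in mutant and 13340.4 to 17625 CPM in WT libraries, with 11 called, all higher. The 16 neutrophil markers summed to 694 to 1820.3 CPM in mutant and 4366 to 9005 CPM in WT libraries, with 1 of 15 tested higher and 12 lower. The 12 monocyte and macrophage markers summed to 1900.3 to 3066 CPM in mutant and 4596 to 5607 CPM in WT libraries, with 9 called, all lower. The mast cell, basophil and eosinophil markers had 4 of 12 higher and 0 lower, summing to 3314 to 8259.8 CPM in mutant and 1603 to 7273 CPM in WT libraries. Developing erythroblasts are a known source of GDF15. At D16 the 12 mast cell, basophil and eosinophil markers summed to 7392 to 11277 CPM in mutant and 34478 to 64893 CPM in WT libraries, with 1 higher and 8 lower, and the neutrophil markers to 3318 to 4998 CPM in mutant and 5533 to 12544 CPM in WT libraries, with 13 of 15 tested called, all lower. Erythroid markers summed to 943 to 1453 CPM in mutant and 468 to 803 CPM in WT libraries at D16, with 6 of 13 tested higher and 1 lower, and monocyte and macrophage markers to 1286 to 1433 CPM in mutant and 851 to 1423 CPM in WT libraries, with 5 of 11 tested higher and 2 lower. At D0 the 8 pluripotency markers summed to 6230.0 to 7098 CPM in mutant and 5982 to 6666 CPM in WT libraries. In these bulk samples more or fewer cells of a type and more or less RNA per cell cannot be told apart, and the part of lineage composition in the differences of the p53 targets was not tested.

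Other marker lists were smaller, and the same shares of all genes stand beside their counts. At D16, 7 of 8 megakaryocyte and platelet markers and 6 of 9 endothelial markers were higher. At D30 each set had 1 higher and 1 lower, of 3 and 5 tested. The mesenchymal stroma markers had 1 higher and 1 lower of 7 tested at D16 and 1 higher of 6 tested at D30. They summed at D30 to 21.3 to 132 CPM in mutant and 15.2 to 30.5 CPM in WT libraries. Of the 8 lymphoid markers only 2 were tested at D30, where 2 were lower and MS4A1 was at 0 in every library. The 6 general hematopoietic markers summed to 1805 to 2104 CPM in mutant and 2262 to 2348 CPM in WT libraries at D30, with 1 higher and 1 lower, and the pluripotency markers summed to 31.4 to 53.5 CPM in mutant and 29.2 to 31.3 CPM in WT libraries.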

How the data were processed

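Per the submitters' processing notes, reads were trimmed with Trimmomatic 0.36, quantified with Salmon 0.13.1 against GRCh38 and tested with DESeq2, whose version the sources used here do not give. The authors deposited, per gene and library, TPM (scaled by transcript length and to a fixed sum), expected counts (estimated reads per gene, not normalized) and the average effective length. Use of strand in the quantification is not given there, and 12 of the 30 genes overlap another protein-coding gene. Gene symbols and positions came from GENCODE v44, which matched 35051 of 35168 identifiers. The other 117 held 0.238% of counts and stayed in the tests. Columns of no listed sample numbered 0.

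Expected counts were rounded and tested with edgeR 4.0.16 in R 4.3.3 (filterByExpr, TMM, glmQLFit, glmQLFTest) on the 6 libraries of a day, with genotype as the only term. One fit over all 18 libraries gave the interactions and day changes. A call is an adjusted p under 0.1 over all genes tested. The coefficient of biological variation was 0.130, 0.170 and 0.223 at D0, D16 and D30. The sources do not state that replicates were separate cultures. The p-values therefore cover only how much these libraries differed, which may be technical. Scripts were tested on simulated data.

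The members and gene lists were chosen with earlier results of these data known. All 30 genes are reported, with values per library for those called on a day (up to 12 a day by smallest adjusted p) and for CDKN1A, MDM2 and GDF15, and examples from the up to 4 called genes of smallest adjusted p per further list and day. One gene that the rule names singly is not reported here. Alternatives were RLE scaling, no count filter, a filter of 5 CPM in 3 libraries, DESeq2 1.42.0, limma-voom (limma 3.58.1), the deposited lengths as offsets in edgeR or DESeq2, an adjusted p under 0.05, the genotype contrast of the fit over 18 libraries, the replicate number as a block, single libraries left out one at a time (whole replicate numbers for interactions), the members on 1q left out, and, added after seeing the data, GDF15, SESN2 and TNFRSF10B left out. Of these, 16 give a value for a single gene on a day.

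Pairing was checked by correlating deviations from the group mean of log2(CPM + 1) between mutant and WT libraries. Same-numbered libraries gave 0.333, 0.178 and 0.278 at D0 and 0.126, 0.235 and 0.394 at D16, all over 0.1. Differently numbered ones ran from −0.287 to 0.0575 at D0 and from −0.313 to 0.100 at D16. At D16 the lowest same-numbered value (0.126) was thus little above the highest of the others (0.100). The labels number the replicates and say nothing of shared batches. At D30 not every same-numbered pair was over 0.1, and mutant replicate 1 with WT replicate 2 reached 0.252.

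Elements of p53 were sought on both strands of hg38. Sequences printed are from that genome.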

Additional observations from a re-analysis of the deposited data

Results flagged for a closer look

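The difference between USB1 mutant and WT cells changed between some pair of days for 19 of the 30 p53 targets. The share of all genes that changed between any pair of days was not computed, so the 19 has no background. The test took the mutant over WT log2 fold change at the later day minus that at the earlier day (± standard error, over 18 libraries in edgeR). Positive values mean that the difference moved towards higher levels in the mutant.

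From D0 to D30, 11 differences were positive and 1 was negative, against backgrounds of 6.42% and 4.48% of 16829 genes. The largest were in the death genes EDA2R (2.53 ± 0.38, adjusted p = 0.000783), AEN (1.98 ± 0.32, adjusted p = 0.00123) and BBC3 (1.57 ± 0.32, adjusted p = 0.00646), followed by GDF15 (1.28 ± 0.27, adjusted p = 0.00749) and the sestrin SESN2 (1.12 ± 0.26, adjusted p = 0.0143). The feedback gene MDM2 (0.90 ± 0.16, adjusted p = 0.00219), the death gene BAX (0.87 ± 0.21, adjusted p = 0.0182) and the phosphatase gene PPM1D (0.78 ± 0.19, adjusted p = 0.0176) came next. TP53INP1 (0.72 ± 0.22, adjusted p = 0.0554), FDXR (0.70 ± 0.23, adjusted p = 0.0845) and ZMAT3 (0.65 ± 0.20, adjusted p = 0.0564) were nearer the threshold. TP53I3 was the 1 negative difference (−0.54 ± 0.16, adjusted p = 0.0452), in a gene that was not called on any single day.

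From D16 to D30, 16 differences were positive and 2 were negative, against backgrounds of 10.3% and 10.2% of genes. Among arrest and feedback genes these were CDKN1A (0.95 ± 0.20, adjusted p = 0.00446), MDM2 (0.91 ± 0.16, adjusted p = 0.00123) and PPM1D (0.97 ± 0.19, adjusted p = 0.00266). Among death genes they were EDA2R (1.92 ± 0.41, adjusted p = 0.00505), AEN (1.82 ± 0.33, adjusted p = 0.00166), BBC3 (1.68 ± 0.33, adjusted p = 0.00306), TP53INP1 (1.53 ± 0.21, adjusted p = 0.000237), BAX (0.98 ± 0.21, adjusted p = 0.00577), ZMAT3 (0.79 ± 0.20, adjusted p = 0.0132), RPS27L (0.68 ± 0.20, adjusted p = 0.0304) and TNFRSF10B (0.49 ± 0.16, adjusted p = 0.0556). Among repair genes they were XPC (0.83 ± 0.20, adjusted p = 0.0119), DDB2 (0.61 ± 0.19, adjusted p = 0.0347) and POLH (0.47 ± 0.16, adjusted p = 0.0669), and among metabolic genes SESN2 (1.20 ± 0.26, adjusted p = 0.00590) and FDXR (0.85 ± 0.23, adjusted p = 0.0215). TIGAR (−1.65 ± 0.31, adjusted p = 0.00210) and TP53I3 (−0.55 ± 0.16, adjusted p = 0.0279) were negative.

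From D0 to D16 TIGAR was positive (1.34 ± 0.31, adjusted p = 0.0201), against a background of 3.86% of genes. CDKN1A (−0.77 ± 0.20, adjusted p = 0.0410) and TP53INP1 (−0.81 ± 0.22, adjusted p = 0.0457) were negative (background 3.75%). CDKN1A, the cell cycle inhibitor p21, was called higher in mutant cells at D0 and D30 and had a log2 fold change of −0.01 (adjusted p = 0.983) at D16.

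Under all 12 alternatives run for the interactions, the calls of BBC3, EDA2R, AEN and GDF15 held from D0 to D30, and those of MDM2, PPM1D, BBC3, EDA2R, AEN, TP53INP1, SESN2 and TIGAR held from D16 to D30. No call from D0 to D16 held under all of them. The others lost their call under at least 1 alternative, in each case also when at least 1 replicate number was left out of all groups.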

How the results depend on the processing

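No alternative reversed the direction of a called target, a median or a count. Of the alternatives, only DESeq2 within a day and the replicate block at D0 and D16 have their share of all genes given above. Counts under the others show only how the calls of targets moved. At D0 the 5 targets higher in the mutant became 2 in edgeR with transcript lengths, 3 in the fit over 18 libraries and 10 with the replicate block, and 2 to 5 with a single library left out, where mutant replicate 2 (3), mutant replicate 3 (2) and WT replicate 2 (2) mattered. At D16 the 6 higher became 3 with lengths in edgeR and 3 with lengths in DESeq2, the 3 lower became 1 without mutant replicate 1 and 6 without WT replicate 3 (1 to 6 over single libraries left out), and the median log2 fold change of members at D16 became 0.15 without mutant replicate 2 (0.0598 to 0.15 over single libraries). At D30 the 19 higher ran from 13 to 17 with a single library left out and were 14 at an adjusted p under 0.05, and the 0 lower became 1 (TP53I3) in the fit over 18 libraries. Interactions from D0 to D16 numbered 3, but 1 in edgeR with lengths and 0 to 2 without 1 replicate number (0 without replicate 2 in edgeR, where 4 had an unadjusted p under 0.05). Those from D0 to D30 numbered 12, but 6 to 7 without 1 replicate number, and those from D16 to D30 numbered 18, but 10 to 15. These 19 values of 250 moved over 1.5 times or, for medians, over the spread of libraries, and the cause was not tested. At D30 the numbers did not pair the libraries (correlations of 0.158, −0.0622 and 0.318). The replicate block gave 18 higher there, adding PLK2 and losing TNFRSF10B and SESN1, and its share over all genes was not computed. Depth limits GDF15 at D16 (5 to 32 counts) and SPATA18, which was not tested there.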
